A study of Mus musculus with 2 samples.

Results

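The TCF/LEF transcription factors and the genes that control beta-catenin were measured in embryonic stem (ES) cells of the mouse that carry a Dgcr8 knockout according to the labels. They are 10 genes of the 43629 listed in each count table: the TCF/LEF paralogs Tcf7l1, Tcf7l2, Tcf7 and Lef1, the beta-catenin gene Ctnnb1, and Axin1, Axin2, Apc, Gsk3a and Gsk3b of the complex that destroys beta-catenin. Members were set by gene name, by matching Ensembl identifiers to GENCODE release M21. All 10 were found, and each had at least 1 CPM, that is 1 count in every 1000000 of its library, in A and in B.

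The study holds 1 group of 2 libraries, replicates A and B, of polyadenylated RNA from cells of the 129/Ola background at passage 7. The knockout had been made with paired CRISPR/Cas9 guides. The titles of both libraries share the code KO2d5, whose meaning the labels do not give. Whether the replicates came from separate cultures or from 1 clone is not stated in the labels, so their spread may be technical. No unedited library was analysed here, and the values below are levels in the knockout cells and differences between A and B.

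The library totals were 27872396 counts in A and 30327146 counts in B. Dgcr8, the target of the knockout and the partner of the nuclease Drosha in the complex that cuts primary microRNAs, had 45.0 CPM in A and 64.0 CPM in B. Counts summed over a gene do not show which exons were read, so these levels do not check the genotype. The 6 ES cell markers examined (Pou5f1, Nanog, Sox2, Klf4, Esrrb and Zfp42) all reached 1 CPM in both libraries and summed to 4315 CPM in A and 3706 CPM in B. The exact binomial test on the counts, which covers counting error only, called 76.8% of 14583 tested genes different between A and B (Benjamini-Hochberg adjusted p under 0.05). It called 38.4% higher in A and 38.4% higher in B. Differences of 1.5-fold or more were called for 37.9% of tested genes.

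In the canonical Wnt pathway, Axin and Apc proteins hold beta-catenin so that Gsk3 kinases can phosphorylate it and mark it for degradation. A Wnt signal stops this, and beta-catenin then binds TCF/LEF proteins on DNA. In mouse ES cells Tcf7l1 (also called Tcf3) acts mainly as a repressor of pluripotency genes, a brake that beta-catenin relieves, and blocking Gsk3 favours self-renewal. Dgcr8 is needed to make canonical microRNAs, among them the miR-290 family, abundant in wild-type mouse ES cells, and the miR-302 family.

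Sequences of those microRNAs, which were not measured, are shown first, because Dgcr8 is needed to make them and their seed letters were searched in the 10 genes. Mature sequences are from RefSeq (GRCm38.p6), written 5′ to 3′ with the seed, bases 2 to 8, in capitals, and the 3 shown share the same seed.
miR-291a-3p: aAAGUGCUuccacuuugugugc
miR-294-3p: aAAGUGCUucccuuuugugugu
miR-302b-3p: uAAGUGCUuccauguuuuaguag

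The letters complementary to this seed, AGCACTT, were searched on the transcript strand in the longest 3′ UTR (the untranslated end of the mRNA) of each gene, from GENCODE M21 on GRCm38. Of the 10 genes, 3 held a match, and each held 1. The matches are in capitals below, each with the bases around it, for Tcf7 (chr11:52252457-52252483, minus strand), Lef1 (chr3:131224062-131224088, plus strand) and Gsk3b (chr16:38240588-38240614, plus strand).
Tcf7: gtgcacctataaccccAGCACTTgcga
Lef1: ctcctgtaaaaagcccAGCACTTgaat
Gsk3b: ctgcgcgggaaagaccAGCACTTactt

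Among 21028 3′ UTRs, 14.7% held the same letters. The share depends on length: it was 7.53% for 3′ UTRs of 501 to 1000 bases, 15.4% for those of 1001 to 2000 bases and 51.4% for those of 4001 bases or more. Those searched were 1512 bases for Tcf7, 1287 for Lef1 and 5515 for Gsk3b. The 3′ UTRs of Tcf7l1 (982 bases), Tcf7l2, Ctnnb1, Axin1, Axin2, Apc and Gsk3a did not hold these letters, and that of Apc held 1 match to seed bases 2 to 7. A match to bases 2 to 7, those to bases 2 to 8 included, was held by 28.5% of all 3′ UTRs. A match is a run of letters, and without an unedited library no effect on the transcript could be read.

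Tcf7l1 (ENSMUSG00000055799, GRCm38 chromosome 6, 72626378 to 72789254, minus strand) had 1871 counts in A and 1478 counts in B. This gave 67.1 CPM in A, with a 95% Poisson interval of 64.1 to 70.2, and 48.7 CPM in B, with an interval of 46.3 to 51.3. Per length of its merged exons, it had 17.1 RPKM (reads per 1000 bases per 1000000 counts) in A and 12.4 RPKM in B, a mean of 14.8 ± 3.31 (SD, n = 2). The repressor was therefore detected well above the count minimum in both libraries, at percentile 70.15 by RPKM among genes at 1 CPM or more in both. Replicate A was 1.29-fold higher, a log2 ratio of A over B of 0.37 with a 95% counting interval of 0.27 to 0.46 (exact binomial test, adjusted p = 4.8e-13). A larger difference between these libraries was seen for 57.8% of all tested genes, and the direction turned to higher in B (log2 ratio -0.17) once GC content and transcript length were corrected for.

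Tcf7 (ENSMUSG00000000782, chromosome 11, 52252371 to 52283014, minus strand), also called Tcf1 and known mainly as an activator with beta-catenin, was the highest paralog per length of merged exons. It had 2233 counts (80.1 CPM, 30.5 RPKM) in A and 1944 counts (64.1 CPM, 24.4 RPKM) in B, a mean of 27.5 ± 4.31 RPKM (SD, n = 2). Replicate A was 1.17-fold higher, with a log2 ratio of 0.23 and an interval of 0.14 to 0.32 (exact binomial test, adjusted p = 6.7e-07). After the GC and length correction the log2 ratio was 0.02, which did not pass the same test (adjusted p = 0.691, exact binomial test).

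Lef1 (ENSMUSG00000027985, chromosome 3, 131110471 to 131224356, plus strand), an activating paralog that is itself a common Wnt target, was low. It had 97 counts (3.48 CPM, 0.396 RPKM) in A and 274 counts (9.03 CPM, 1.03 RPKM) in B. Lef1 showed the largest difference of the 10 genes, 2.54-fold higher in B, with a log2 ratio of -1.35 (interval -1.65 to -1.04; exact binomial test, adjusted p = 2.0e-19). Only 5.70% of tested genes differed more, and the log2 ratio stayed at -1.14 after the GC and length correction. The mean level of 0.712 ± 0.447 RPKM (SD, n = 2) therefore carries a wide spread.

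Tcf7l2 (ENSMUSG00000024985, chromosome 19, 55741820 to 55933654, plus strand), also called Tcf4, was as low, with 132 counts (4.74 CPM, 0.540 RPKM) in A and 129 counts (4.25 CPM, 0.485 RPKM) in B. Its mean was 0.512 ± 0.0389 RPKM (SD, n = 2), at percentile 4.69. Of the 10 genes it was the only one not called different, with a log2 ratio of 0.06 and an interval of -0.27 to 0.38 (exact binomial test, adjusted p = 0.785). That interval does not exclude a difference of the size seen for Tcf7l1.

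Tcf7 and Tcf7l1 together made up nearly all TCF/LEF transcripts per length in both libraries. Tcf7 held 62.9% of the summed RPKM of the paralogs in A and 63.7% in B, and Tcf7l1 held 35.2% in A and 32.4% in B. Tcf7l2 held 1.11% in A and 1.26% in B. Lef1 held 0.816% in A and 2.68% in B, so the order of the lowest pair differed between the libraries.

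The ratio of Tcf7l1 to Tcf7, repressor to activator by their best-known roles, was 0.561 in A and 0.509 in B (mean 0.535 ± 0.0367, SD, n = 2). This ratio depended on the length used. It was 0.681 in A and 0.618 in B with the longest transcript, and 0.982 in A and 0.891 in B with the mean coding transcript. Tcf7 thus had the higher value in both libraries under all 3 lengths. Under the last the margin was 1.02-fold in A, which is within counting error, and 1.12-fold in B. Tcf7l1 exceeded Tcf7l2 31.7-fold in A and 25.6-fold in B, and exceeded Lef1 43.2-fold in A and 12.1-fold in B. With the longest transcript as length Tcf7l1 exceeded Tcf7l2 17.3-fold in A and 13.99-fold in B, and Lef1 23.2-fold in A and 6.48-fold in B.

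**Figure D1:**
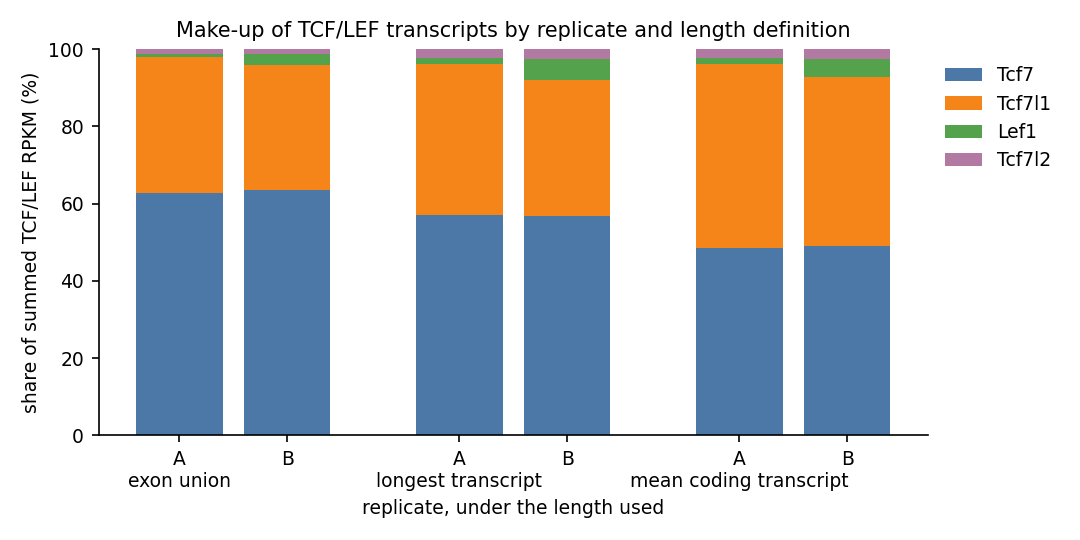
Share of summed RPKM (%) held by each TCF/LEF paralog in replicates A and B, under 3 definitions of gene length. Tcf7 and Tcf7l1 fill nearly the whole bar in each case; Tcf7l1 holds 35.2% in A and 32.4% in B by merged exons, and 47.7% in A and 43.7% in B by the mean coding transcript.

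Ctnnb1 (ENSMUSG00000006932, chromosome 9, 120929216 to 120960507, plus strand), the gene of beta-catenin, was the most abundant of the 10 genes. It had 18654 counts (669 CPM, 129 RPKM) in A and 27715 counts (914 CPM, 176 RPKM) in B. Its mean of 152.5 ± 33.3 RPKM (SD, n = 2) placed it at percentile 97.25. Replicate B was 1.46-fold higher, with a log2 ratio of -0.54 and an interval of -0.57 to -0.52 (exact binomial test, adjusted p under 1e-300). The log2 ratio was also -0.54 after the GC and length correction.

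Gsk3a (ENSMUSG00000057177, chromosome 7, 25228258 to 25237851, minus strand) and Gsk3b (ENSMUSG00000022812, chromosome 16, 38089001 to 38246084, plus strand) encode the related kinases that phosphorylate beta-catenin. Gsk3a had 4113 counts (148 CPM, 50.9 RPKM) in A and 3233 counts (107 CPM, 36.8 RPKM) in B. Gsk3b had 1130 counts (40.5 CPM, 4.12 RPKM) in A and 1620 counts (53.4 CPM, 5.43 RPKM) in B. Gsk3a was the higher paralog in both libraries, and the libraries differed in opposite directions for the pair. Gsk3a was 1.30-fold higher in A, with a log2 ratio of 0.37 (exact binomial test, adjusted p = 4.0e-28), and Gsk3b in A was at 0.714 of its level in B, with a log2 ratio of -0.49 (exact binomial test, adjusted p = 3.6e-18). Under the GC and length correction the log2 ratio of Gsk3a turned to -0.26 (exact binomial test, adjusted p = 2.85e-13). That of Gsk3b became 0.077 and was not called (exact binomial test, adjusted p = 0.252).

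Mean levels were 43.8 ± 9.99 RPKM for Gsk3a and 4.78 ± 0.926 RPKM for Gsk3b (SD, n = 2). Per length, Gsk3a exceeded Gsk3b 12.3-fold in A and 6.77-fold in B. With the mean coding transcript as length the ratio was 5.76 in A and 3.16 in B. The merged exons of Gsk3b span 9831 bases, whereas its coding transcripts average 3570 bases.

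Axin1 (ENSMUSG00000024182, chromosome 17, 26138688 to 26195811, plus strand), the constitutive scaffold of the complex, had 2671 counts (95.8 CPM, 25.03 RPKM) in A and 2566 counts (84.6 CPM, 22.1 RPKM) in B. Axin2 (ENSMUSG00000000142, chromosome 11, 108920349 to 108950783, plus strand), the scaffold that Wnt signalling induces as feedback, had 166 counts (5.96 CPM, 1.08 RPKM) in A and 248 counts (8.18 CPM, 1.49 RPKM) in B. Mean levels were 23.6 ± 2.07 RPKM for Axin1 and 1.28 ± 0.285 RPKM for Axin2 (SD, n = 2). Axin1 was the higher paralog, 23.1-fold in A and 14.9-fold in B per length of merged exons.

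Axin1 differed least among the genes called different, with a log2 ratio of 0.09 (interval 0.01 to 0.16; exact binomial test, adjusted p = 0.0396). This call was lost with DESeq2 size factors and with no count filter, and the direction turned (log2 ratio -0.24) under the GC and length correction. Axin2 was 1.43-fold higher in B, with a log2 ratio of -0.51 (interval -0.78 to -0.24; exact binomial test, adjusted p = 0.00025), and its log2 ratio was -0.69 after that correction.

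Apc (ENSMUSG00000005871, chromosome 18, 34220924 to 34322552, plus strand), the large scaffold protein lost in many colon tumours, had 2176 counts (78.1 CPM, 4.84 RPKM) in A and 4592 counts (151 CPM, 9.40 RPKM) in B. Its mean was 7.12 ± 3.22 RPKM (SD, n = 2). The 2.06-fold higher level in B gave a log2 ratio of -1.04 (interval -1.12 to -0.97; exact binomial test, adjusted p = 6.7e-182). Apc also had the lowest GC content of the 10 genes, 44.3%, and its log2 ratio was -0.19 after the GC and length correction.

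**Figure D2:**
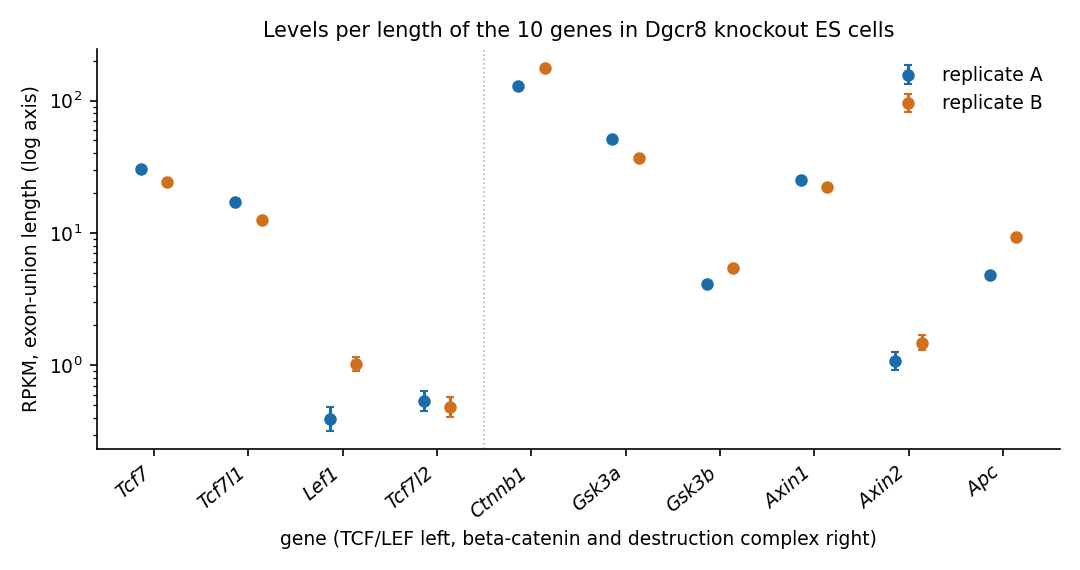
Level of each gene (RPKM by merged exon length, log axis) in replicate A, left of each pair, and replicate B, right; bars are 95% Poisson intervals and are smaller than the point for most genes. Ctnnb1 is highest at 129 in A and 176 in B, and Lef1 and Tcf7l2 are lowest.

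The order of mean RPKM by merged exons was Ctnnb1, Gsk3a, Tcf7, Axin1, Tcf7l1, Apc, Gsk3b, Axin2, Lef1 and Tcf7l2. Neighbours whose ranges over the libraries overlapped by this length were Tcf7 and Axin1, Apc and Gsk3b, and Lef1 and Tcf7l2. Their order was not separated beyond the spread. The order also moved with the length used. With the longest transcript Lef1 (mean 1.71 RPKM) ranked above Axin2 (1.66 RPKM). With the mean coding transcript Axin1 (mean 36.2 RPKM) ranked above Tcf7 (34.2 RPKM), and the ranges of both overlapped that of Tcf7l1. The ratio of Ctnnb1 to Gsk3b was close between libraries, 31.3 in A and 32.4 in B. The ratio to Axin1 was 5.15 in A and 7.96 in B, that to Apc 26.6 in A and 18.7 in B, and that to Gsk3a 2.53 in A and 4.79 in B. With the mean coding transcript as length these ratios were higher, at 11.9 in A and 18.4 in B to Axin1, 43.8 in A and 30.8 in B to Apc, and 6.98 in A and 13.2 in B to Gsk3a. They compare transcripts and not protein amounts.

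Some exons are shared with other genes, and the strand setting of the counting is not given in the sources used here, although the libraries are labelled as reverse-stranded. An antisense gene, 9130221H12Rik, covers 28.3% of the Gsk3a exons and had 171 counts in A and 138 in B. The opposite-strand gene Ulk4 covers 14.6% of the Ctnnb1 exons and had 39 counts in A and 37 in B. Those counts were small beside the members', but the levels of Gsk3a and Ctnnb1 are uncertain to the extent that reads could be assigned to either gene. Near-identical pseudogene copies held 0 counts in A and 5 in B for Apc (Apc-ps1), and 2 counts in A and 1 in B for Gsk3a (Gm6275). Among the other genes named below, the antisense gene Notumos covers 29.4% of the Notum exons (75 counts in A, 39 in B) and Acadvl, on the opposite strand, 18.3% of the Dvl2 exons (1200 counts in A, 843 in B). Opposite-strand genes also cover 23.4% of the Ccnd1 exons (285 counts in A, 269 in B) and 39.9% of the Ppp2ca exons (1 count in A, 1 in B). Fgfr2 shares 5.05% of the Ctbp2 exons on the same strand (674 counts in A, 316 in B). The levels of these 5 genes are uncertain in the same way.

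Of the 10 genes, 9 were called different between the libraries, against 76.8% of all tested genes, which is near that background for a list of this size. The 4 higher in A were Tcf7l1, Tcf7, Axin1 and Gsk3a, and the 5 higher in B were Lef1, Ctnnb1, Axin2, Apc and Gsk3b, against 38.4% of tested genes in each direction. At 1.5-fold or more 2 were called, Lef1 and Apc, against 37.9%. The median log2 ratio of the 10 genes was -0.21, and that of all tested genes was 0.01. The SD of the log2 ratio over the 9537 genes at 10 CPM or more was 0.611, and 8 of the 10 genes, all but Lef1 and Apc, lay closer to 0 than that.

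When the spread between all genes of the libraries was used in place of counting error (edgeR's exact test with a dispersion estimated as if A and B were alike), 0 of the 10 genes were called and 0 had an unadjusted p under 0.05. By that test 0.171% of all tested genes were called, 25 genes, and 846 had an unadjusted p under 0.05. The common dispersion behind it gave a coefficient of variation of 0.359 between the libraries. That dispersion was set by the same differences between A and B that were tested, so few genes could pass.

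The differences moved with GC content. In the tenth of tested genes with the lowest GC content (median 39.7%) the median log2 ratio was -0.53 and 71.1% were called higher in B, whereas in the tenth with the highest (median 59.7%) it was 0.57 and 73.9% were called higher in A. Gsk3a (59.8% GC), Tcf7l1 (59.3%) and Axin1 (56.6%) lay at the high end and were higher in A. Apc (44.3%), Gsk3b (46.1%) and Lef1 (46.1%) lay at the low end and were higher in B. The tenth that held all of these low-GC members had a median log2 ratio of -0.24. Their longest transcripts spanned 12811, 8303 and 3656 bases, and the GC and length correction moved them to -0.19, 0.077 and -1.14. The part of length in that correction was not separated from the part of GC content. Axin2 (54.6%), at a GC content whose bin had a median log2 ratio of 0.28, was higher in B all the same. After the correction 7 of the 10 genes were called, against 70.8% of tested genes, and all 7 were higher in B, against 36.6% of tested genes. They were Tcf7l1, Lef1, Ctnnb1, Axin1, Axin2, Apc and Gsk3a.

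**Figure D3:**
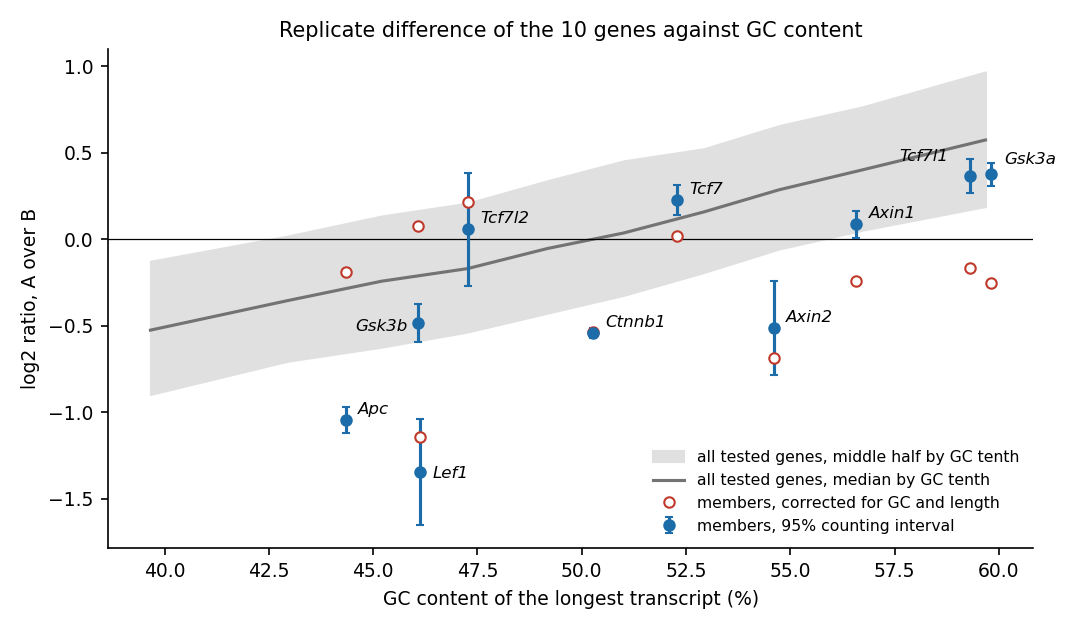
Log2 ratio of A over B against the GC content of the longest transcript (%); filled points are the 10 genes with 95% counting intervals, open points the same genes after correction for GC content and length, the line the median and the band the interquartile range of all tested genes in 10 bins of GC content. The line climbs with GC content; Lef1, Ctnnb1 and Axin2 stay below -0.5 after correction.

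Markers of other cells moved between the libraries as well. Of 6 endoderm markers 3 had at least 1 CPM in A and in B, and all together summed to 56.9 CPM in A and 165 CPM in B. Lama1, a basement membrane gene, had 47.3 CPM in A and 142 CPM in B, Cubn 1.51 CPM in A and 14.3 CPM in B, and Gata4 7.10 CPM in A and 4.91 CPM in B. The endoderm factors Sox17 (5 counts in A, 19 in B) and Foxa2 (2 counts in A, 14 in B) stayed under 1 CPM in both. Gata6, another endoderm factor, had 19 counts (0.682 CPM) in A and 71 counts (2.34 CPM) in B. It passed the filter of 1 CPM through B alone. Of 5 fibroblast markers, which feeder cells would bring, 3 reached 1 CPM in both, and the list summed to 45.1 CPM in A and 27.1 CPM in B. Thy1 had 31.4 CPM in A and 21.9 CPM in B, Pdgfrb 10.7 CPM in A and 3.59 CPM in B, and Col1a1 2.91 CPM in A and 1.22 CPM in B. All of these were called higher in A, against 38.4% of all tested genes. After the GC and length correction the log2 ratio was -0.045 for Thy1, 1.27 for Pdgfrb and 0.65 for Col1a1. The collagen genes Col1a2 (2 counts in A, 7 in B) and Col3a1 (1 count in A, 5 in B) stayed under 1 CPM in both. None of these markers was at 0 in both libraries. In bulk RNA, fewer cells of a type and less RNA per cell cannot be told apart, and the part of these markers in the differences of the 10 genes was not tested.

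Of 15 other genes of beta-catenin turnover, 4 were called higher in A and 10 higher in B, against 38.4% of all tested genes in each direction. Their median log2 ratio was -0.37, and -0.16 after the GC and length correction; their median GC content was 46.7%. Ppp2ca turned from a log2 ratio of -0.37 to 0.18 under that correction. The highest per length were the phosphatase subunit genes Ppp2r1a (122 RPKM in A, 108 in B) and Ppp2ca (39.5 in A, 47.8 in B) and the deubiquitinase gene Usp7 (56.5 in A, 76.6 in B). Tnks, whose product tankyrase marks Axin proteins for degradation, had 350 counts (12.6 CPM) in A and 2484 counts (81.9 CPM) in B. It was 6.72-fold higher in B (exact binomial test, adjusted p under 1e-300), and only 0.165% of tested genes differed more. Its log2 ratio was -2.75, and -2.17 after the GC and length correction. Apc2, an Apc paralog, was 1.72-fold higher in A, at 1.22 CPM in A and 0.462 CPM in B (exact binomial test, adjusted p = 0.0052), and passed the filter of 1 CPM through A alone.

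The relay from the Wnt receptor to the complex was split. Of 9 tested genes, 4 were called higher in A and 4 higher in B, against 38.4% of all tested genes in each direction. The median log2 ratio of the 9 was 0.00. The casein kinase gene Csnk1g2 (26.6 RPKM in A, 19.8 in B) and the Dishevelled genes Dvl2 (11.6 in A, 7.69 in B) and Dvl1 (7.67 in A, 5.62 in B) were highest per length. Frat2, whose product binds Gsk3 and is known to inhibit it, was 2.43-fold higher in A, with 13.7 CPM in A and 5.01 CPM in B (exact binomial test, adjusted p = 2.1e-24), and 1.54-fold after the GC and length correction. Its paralog Frat1 had 14 counts in A and 0 in B, under 1 CPM in both. The co-receptor gene Lrp6 was 1.77-fold higher in B, with 55.0 CPM in A and 91.8 CPM in B (exact binomial test, adjusted p = 2.7e-75), and 1.15-fold after that correction.

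Nuclear partners of the TCF factors fell on both sides. Of 10 coactivator genes, 6 were called higher in B and 2 higher in A, against 38.4% of all tested genes in each direction. The median log2 ratio of the 10 was -0.40, and -0.23 after the GC and length correction. Smarca4, a chromatin remodelling ATPase gene, had 39.0 RPKM in A and 44.5 in B, Pygo2 19.0 in A and 14.4 in B, and Tbl1x 12.4 in A and 20.5 in B. The acetyltransferase gene Ep300 was 2.21-fold higher in B, with 106 CPM in A and 220 CPM in B (exact binomial test, adjusted p = 1.6e-305). Pygo1, with 97 counts in A and 25 in B, was 2.86-fold higher in A (exact binomial test, adjusted p = 2.7e-11), and passed the filter of 1 CPM through A alone. The fold for Pygo1 was 4.41 after the correction.

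Of 13 tested corepressors and inhibitors of TCF factors, 7 were called higher in A and 4 higher in B. The share over all tested genes was 38.4% in each direction. The median log2 ratio of the 13 was 0.16, and 0.032 after the GC and length correction. The short Groucho-family gene Tle5 (Aes in release M21) had 85.2 RPKM in A and 47.8 in B, the corepressor gene Ctbp2 33.6 in A and 52.3 in B, and the deacetylase gene Hdac2 35.2 in A and 43.3 in B. Tle6 was 2.05-fold higher in A (19.7 CPM in A, 8.77 in B; exact binomial test, adjusted p = 4.0e-24). Tle4 was 2.16-fold higher in B (106 CPM in A, 215 in B; exact binomial test, adjusted p = 2.1e-286). Tle6 and Tle4, both of the Groucho family, thus differed in opposite directions. Which members of this family act with Tcf7l1 in these cells was not tested. Sox17, on this list as an antagonist of beta-catenin, stayed under 1 CPM in both.

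Of 5 kinases that can phosphorylate TCF factors or act upstream of such kinases, 0 were called higher in A and 4 higher in B, against 38.4% of all tested genes in each direction. Their median log2 ratio was -0.41, and -0.16 after the GC and length correction; their median GC content was 45.7%. Map3k7 had 14.3 RPKM in A and 17.8 in B, Nlk 7.61 in A and 7.58 in B, and Hipk1 3.78 in A and 6.20 in B. Nlk, the best known of them, was not called (exact binomial test, adjusted p = 0.177). Tnik was 1.97-fold higher in B, with 120 counts in A and 255 in B (exact binomial test, adjusted p = 2.2e-11), and 1.11-fold after the correction, under which the log2 ratio of Nlk was 0.21 and that of Map3k7 0.021.

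Beta-catenin also links cadherins to the cytoskeleton at cell junctions, and its partners there were abundant. Cdh1 (E-cadherin) had 93.99 RPKM in A and 107 in B, Ctnna1 (alpha-catenin) 69.4 in A and 89.3 in B, and Jup (plakoglobin, a close relative of beta-catenin) 40.2 in A and 28.8 in B. Ctnnb1 exceeded Cdh1 1.37-fold in A and 1.64-fold in B, Ctnna1 1.86-fold in A and 1.97-fold in B, and Jup 3.21-fold in A and 6.11-fold in B, per length of merged exons. With the mean coding transcript as length the ratio to Cdh1 was 4.05 in A and 4.84 in B, that to Ctnna1 1.47 in A and 1.56 in B, and that to Jup 4.93 in A and 9.40 in B. Of the 6 partners tested, 3 were called higher in B and 2 higher in A, against 38.4% of all tested genes in each direction. The median log2 ratio of the 6 was -0.19. Cdh3 was 1.39-fold higher in A (8.14 RPKM in A, 5.48 RPKM in B; exact binomial test, adjusted p = 2.2e-11). Cdh2 was 1.67-fold higher in B, with 20 counts in A and 44 in B (exact binomial test, adjusted p = 0.00557), and passed the filter through B alone. Ctnna2 had 2 counts in A and 4 in B.

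Common Wnt target genes were mostly low. Of 13 measured, 6 reached 1 CPM in both libraries and 8 were tested. Of those 8, 4 were called higher in A and 3 higher in B, against 38.4% of all tested genes in each direction. The median log2 ratio of the 8 was 0.26, and 0.099 after the GC and length correction. The cyclin gene Ccnd1 had 52.4 RPKM in A and 57.4 in B, Notum, a Wnt-inactivating enzyme gene, 43.8 in A and 19.6 in B, and Myc 18.8 in A and 32.4 in B. Cdx1 was 3.36-fold higher in A, with 344 counts in A and 94 in B (exact binomial test, adjusted p = 5.9e-35), and 1.98-fold after the correction. Myc was 1.82-fold higher in B, with 51.2 CPM in A and 88.0 CPM in B (exact binomial test, adjusted p = 1.2e-78). Sp5 had 11 counts in A and 20 in B, and Lgr5 had 0 counts in A and 5 in B, where 0 counts in A allows up to 0.108 CPM. Axin2 and Lef1, described above, are Wnt targets too and were higher in B.

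The genes listed as bound and repressed by Tcf7l1 in ES cells were abundant in both libraries. All 9 listed had at least 1 CPM in A and in B, and their median was 106 RPKM. Pou5f1, Nanog, Sox2 and Esrrb among them are also ES cell markers. Repression by Tcf7l1 was not tested, since no unedited library was analysed. Pou5f1 (Oct4) had 803 RPKM in A and 686 in B, Nanog 255 in A and 202 in B, and Sox2 230.0 in A and 152 in B. Of the 9, 5 were called higher in A and 4 higher in B, against 38.4% of all tested genes in each direction. The median log2 ratio of the 9 was 0.13, and 0.19 after the GC and length correction. That correction turned Pou5f1 from a log2 ratio of 0.13 to -0.46, and Tfcp2l1, named after its values were seen, from -0.39 to 0.19. Klf2 was 2.13-fold higher in A, with 427 CPM in A and 188 CPM in B (exact binomial test, adjusted p under 1e-300), and 1.27-fold after the correction. Nr5a2 was 1.77-fold higher in B, with 48.1 CPM in A and 80.4 CPM in B (exact binomial test, adjusted p = 1.2e-66).

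**Figure D4:**
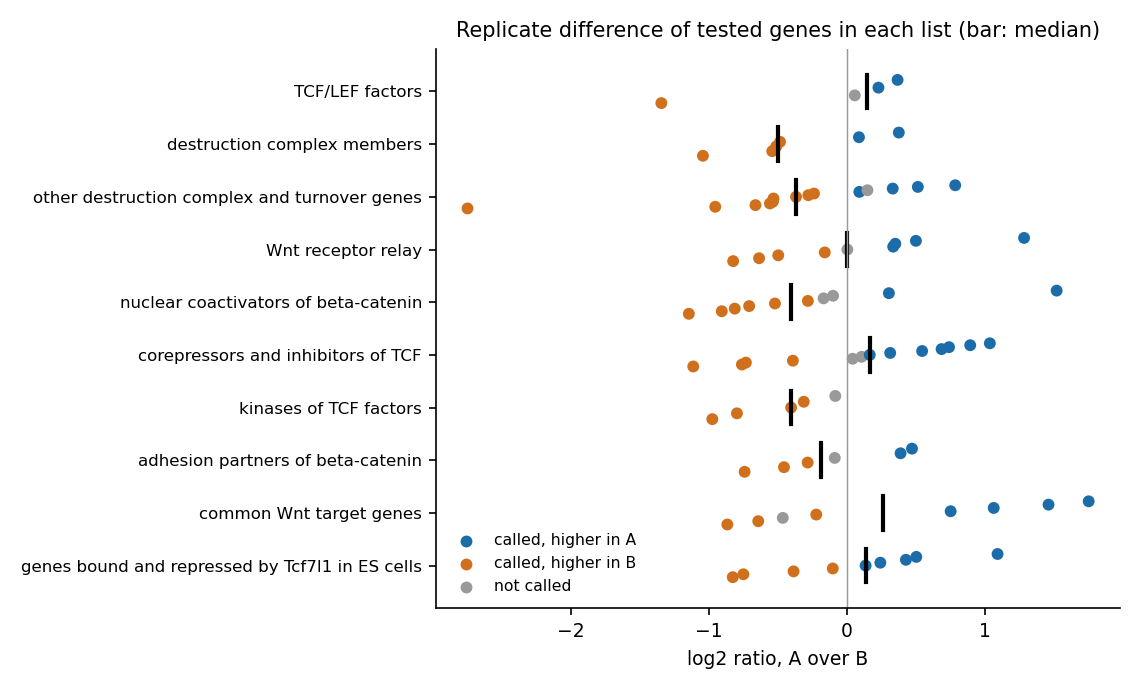
Log2 ratio of A over B for each tested gene of the pathway lists, 1 row per list; blue points were called higher in A, orange higher in B and grey not called (exact binomial test), and black bars are list medians. TCF/LEF factors, corepressors and Wnt targets have medians above 0, and beta-catenin with its destruction complex, coactivators and kinases have medians near -0.4 to -0.5. After the GC and length correction, not drawn, the median was -0.075 for TCF/LEF factors, -0.25 for beta-catenin with its complex, -0.23 for coactivators and -0.16 for kinases.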

How the data were processed

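Polyadenylated RNA of 2 libraries of 1 group was analysed. The authors deposited whole-number counts for each Ensembl gene, without normalization. Per the submitters' processing notes the build was mm10 and the tools were featureCounts 1.4.5-p1 and STAR 2.4.2a, with no role given; no source used here gives the annotation release, the strand setting or the treatment of multiply mapped reads. Names, coordinates, exon lengths and GC content (longest transcript) came from GENCODE M21 on GRCm38, which matched 42548 of 43629 identifiers.

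CPM used library totals; RPKM used the merged exon length, with the longest transcript and the mean coding transcript as alternatives. The 14583 genes with at least 1 CPM in A or in B were compared between them by an exact two-sided binomial test on the counts, given TMM-scaled library sizes (factors 1.03 for A and 0.968 for B; edgeR 4.0.16, R 4.3.3), with Benjamini-Hochberg adjustment and a threshold of 0.05. The test compares the libraries and no conditions. The log2 ratio, A over B, used TMM-scaled CPM + 0.5, which understates the ratios of low genes. The GC and length correction subtracted a spline fit (5 degrees of freedom for each term, patsy 1.0.2). It was fitted over tested genes with a matched transcript and a mean of A and B of at least 1 CPM. Tested genes without a matched transcript were left uncorrected. Overlapping exons came from the annotation and near copies from BLAST+ 2.17.0 (at least 90% identity over 200 bases). Statistics used Python 3.11.15 and SciPy 1.17.1. The test was tried on simulated counts that held Poisson counting error only, so spread beyond counting error was not covered. Intervals and limits reflect counting error alone: the reads carry no molecular identifiers, so they need not come from independent molecules.

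The members and the 13 gene lists (105 symbols) were chosen with earlier results of these data known. The genes named are all 10 members and, of each other list, the 3 highest by mean RPKM at 1 CPM or more in both libraries, up to 2 under 1 CPM in both, and the largest called ratio in each direction; the ES cell markers are listed by name in full. The alternatives tried were library totals, size factors from DESeq2 1.42.0, other filters, pseudocounts, lengths, Fisher's exact test, edgeR's exact test, the GC correction, and a 1.5-fold minimum and further ratios by other lengths, both of these added after the data were seen.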

Additional observations from a re-analysis of the deposited data

How the results depend on the processing

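No paired analysis was possible because there is 1 group. Of 97 recomputed log2 ratios of the 10 genes, 74 kept direction and call, 19 kept the direction but lost the call and 4 turned. The 4 that turned did so under the GC and length correction, to -0.17 for Tcf7l1, -0.24 for Axin1, -0.26 for Gsk3a and 0.077 for Gsk3b. Gsk3b was not called under that correction, which left 0 members called higher in A. Axin1 lost its call with DESeq2 size factors (adjusted p = 0.0882, exact binomial test) and with no filter (0.06). With a filter of 10 CPM, 3 members were called higher in B, since Tcf7l2, Lef1 and Axin2 were not tested. edgeR's exact test called 0 members, 0 higher in A and 0 higher in B, and 25 of all genes, 11 higher in A and 14 higher in B. The minimum of 1.5-fold, chosen after seeing the data, left 2 members, 0 higher in A and 2 higher in B, and 5527 of all genes, 2830 higher in A and 2697 higher in B. Library totals without TMM moved the median log2 ratio of all tested genes to 0.10, against 0.01 with TMM, and gave 6431 genes higher in A and 4851 higher in B.

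Levels per length depended on the length: 16 of 40 recomputed levels moved by more than the SD of the libraries, all by another length. With the longest transcript the mean ratio of Tcf7l1 to Tcf7 was 0.649 and that of Tcf7l1 to Tcf7l2 15.7; with the mean coding transcript they were 0.936 and 18.7, that of Gsk3a to Gsk3b was 4.46 and that of Axin1 to Axin2 9.35. Leaving out A or B moved no level or ratio of the 10 genes by more than that SD; with 2 values this holds by construction. Depth limits Tcf7l2, Lef1 and Axin2 most, with 97 to 274 counts in a library.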
